A study of Mus musculus with 6 samples.

Results

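Of the 20279 gene symbols found in at least 1 of 6 single-cell count tables, 32 belong to the small-subunit ribosomal protein genes described here. They were chosen by symbol alone (Rpsa, Rps4x, Rps27rt and the symbols made of Rps, a number and at most an a, x or l), without the S6 kinases, and all 32 were present in all 6 tables. Rps3a1, Fau and Rack1 also encode parts of the small subunit but fall outside that rule, and they are given separately where the other gene lists are described.

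The small ribosomal subunit binds the messenger RNA, scans for the start codon and holds the decoding site, while the large subunit forms peptide bonds. Its proteins are made in matched amounts in nearly every cell, and in mammals their messages begin with a run of pyrimidines, the 5′ terminal oligopyrimidine (TOP) motif, through which the mTOR pathway adjusts their translation. Lymphocytes of the spleen raise ribosome production when they are activated. Mutations in several of these genes, among them the human RPS19, RPS24, RPS26 and RPS10, cause the inherited red cell disorder Diamond-Blackfan anaemia.

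The libraries were single-cell cDNA read full length by Nanopore sequencing. The labels give spleen from females 10 weeks old, and the series text names the strain C57BL/6. Modified 5′ libraries carried 1 µl of added 10 mM dNTP at reverse transcription and again at amplification, with extension times of 2 h and 3 min at these steps. Standard 5′ libraries had extension times of 45 min and 1 min, and 3′ libraries were made with a kit that places the cell barcode at the poly(A) end instead of the template-switch end. Each protocol had 2 libraries, replicates 1 and 2. No genetic change or treatment of the mice is named in the labels. For replicate 2 the labels' extraction protocol is one for pancreatic islets, with removal of insulin cDNA, in conflict with the spleen label. Summed over 10 pancreas marker genes, modified 5′ replicate 2 held 41.4 CPM (counts per 1e6 counts) and the other 5 libraries 2.50 to 13.7 CPM, with Ins1 and Ins2 at 0 in those 5. Separate animals for the replicates are not named in the labels, so the spread behind the p-values is that of libraries and may be technical.

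The libraries held 723341 to 2627253 counts, and a floor of 200 genes and a ceiling of 20% mitochondrial counts left 861 to 4045 cells in each. Standard 5′ replicate 1 differed from the rest, since 34.0% of its barcodes passed, while 78.3% to 89.9% did elsewhere. Haemoglobin genes took at most 0.128% of the counts of kept cells in replicate 2 libraries and 3.92% to 6.84% in replicate 1 libraries. Pairs of libraries shared 0 to 16 cell barcodes. The 32 genes were read from 30750 counts in standard 5′ replicate 1 up to 206802 counts in modified 5′ replicate 2.

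The following 30-base windows, 20 bases before the annotated start and 10 from it, are shown for the gene that fell most in the 5′ protocols (Rps25), the gene that differed most between the 5′ protocols (Rps21), a near-identical pair (Rps27 and the retrogene Rps27rt) and a member with a long pyrimidine start (Rps10). They come from RefSeq on GRCm38.p6, 5′ to 3′ on the gene's strand, and capitals mark runs of pyrimidines that open with C and go on with at least 4 bases that are C or T. Positions are chr9:44407694-44407723 on the plus strand for Rps25, chr2:180257359-180257388 on the plus strand for Rps21, chr3:90213639-90213668 on the minus strand for Rps27, chr9:114982730-114982759 on the minus strand for Rps27rt and chr17:27635235-27635264 on the minus strand for Rps10.
Rps25: tCCTTTTTTTCCgacatcttagcgaggctg
Rps21: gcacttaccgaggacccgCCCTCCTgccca
Rps27: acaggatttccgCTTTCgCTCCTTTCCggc
Rps27rt: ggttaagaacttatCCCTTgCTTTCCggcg
Rps10: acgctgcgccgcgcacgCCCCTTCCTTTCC

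Such a pyrimidine run lay exactly at the annotated start of 7 of the 24 members with an entry (29.2%), against 7 of 37 large-subunit genes (18.9%) and 3.01% of 27025 genes. Only the gene's own strand was read. Within 10 bases of the start on either side, 16 of the 24 members (66.7%) held such a run, against 34.4% of all genes. A run depends on where the start is annotated: in Rps25 it lies upstream of the annotated start, and in Rps21, Rps27, Rps27rt and Rps10 it covers it. At the start of GENCODE M21 transcripts, 12 of 32 members (37.5%) and 4.22% of 21840 protein-coding genes had one.

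The 32 genes together took a larger share of the counts in the 5′ protocols than in the 3′ protocol. Their share of the counts of kept cells was 10.5% and 9.84% in modified 5′, 8.41% and 9.15% in standard 5′, and 6.65% and 6.20% in 3′ libraries, in replicates 1 and 2. The groups did not overlap. Modified 5′ libraries averaged 10.2% ± 0.440 and 3′ libraries 6.43% ± 0.318 (SD, n = 2 each), a difference of 3.73 points. Standard 5′ libraries averaged 8.78% ± 0.529, which is 2.35 points above 3′ libraries, and modified 5′ libraries were 1.37 points above standard 5′ libraries. Within replicate numbers 1 and 2 that last difference was 2.06 and 0.687 points, and over all barcodes it was 0.780 points. In every protocol the median cell lay close to the share of the summed counts, at 10.9% and 9.70% in modified 5′, 9.41% and 8.93% in standard 5′ and 6.78% and 6.09% in 3′ cells. In a sum over cells, fewer cells of a type and less RNA per cell cannot be told apart, and the shares are therefore also given by cell class below.

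**Figure D1:**
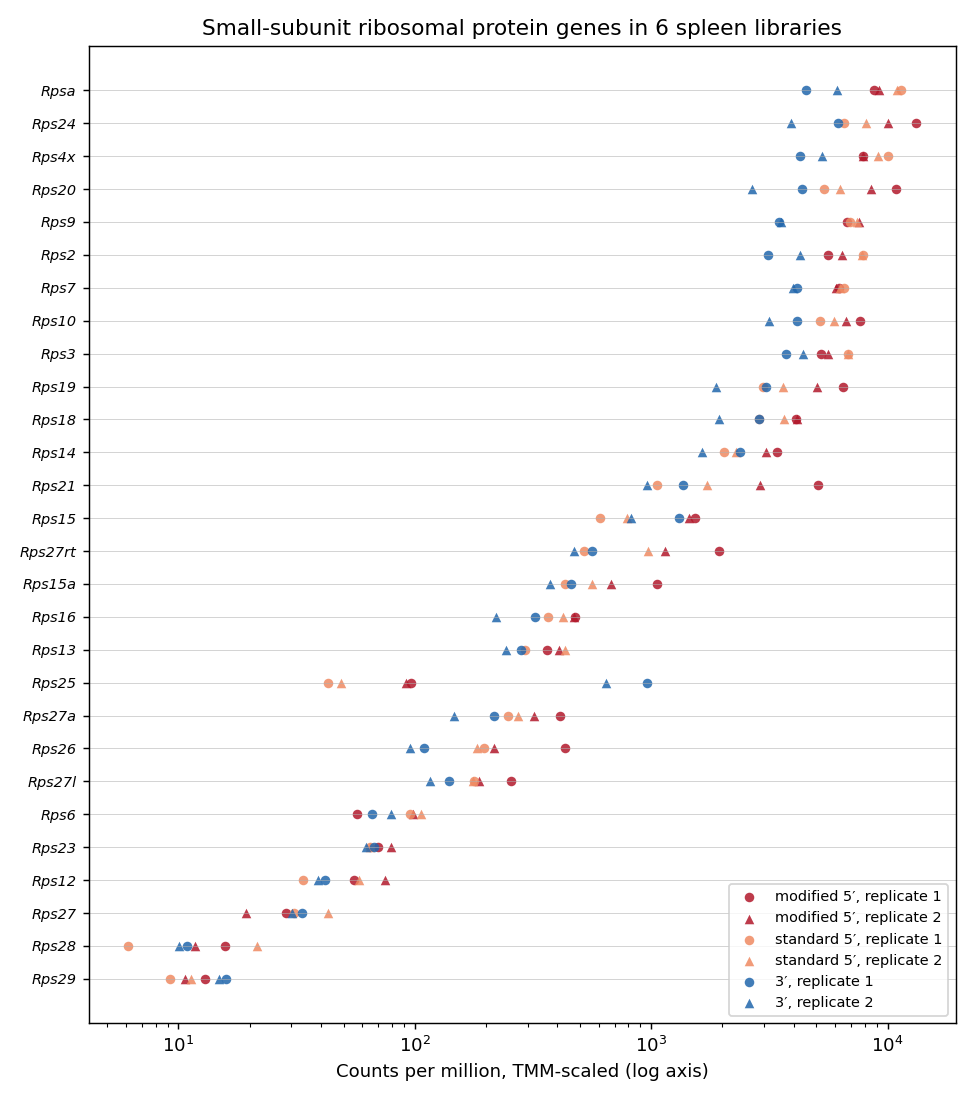
Each row is 1 of 28 members and each point a library, placed on a log axis of CPM scaled by TMM factors; colours mark modified 5′, standard 5′ and 3′ libraries, and circles and triangles replicates 1 and 2. Rps25 stands far to the left in both 5′ protocols, while Rps27, Rps28 and Rps29 rest on few counts in every library.

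CPM values below are scaled by TMM factors and are not divided by transcript length, which holds for the bands of level given next too. Apart from these bands, values are compared between genes only for Rps27 and Rps27rt, whose transcripts have 345 and 374 nt. By this scale 17 members averaged at least 1000 CPM over the 6 libraries, 9 averaged 100 to under 1000 CPM and 6 (Rps6, Rps12, Rps23, Rps27, Rps28 and Rps29) averaged less. Rps28 rested on 2 counts and Rps29 on 3 counts in standard 5′ replicate 1. Rps6 encodes the target of the S6 kinases. It had 57.2 and 98.5 CPM in modified 5′, 95.2 and 106 CPM in standard 5′, and 65.6 and 79.2 CPM in 3′ libraries, in which the groups overlap. Of the 31-base words of the Rps6 and Rps12 transcripts, 84.9% and 90.5% occur in other genes. The median was 72.0% over the 6 members under 100 CPM and 52.1% over the 17 of at least 1000 CPM. The part of such sharing in the low values was not tested.

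Against 3′ libraries, modified 5′ libraries had 17 of the 32 genes higher and 1 lower, and standard 5′ libraries 9 higher and 1 lower, by edgeR's quasi-likelihood test with Benjamini-Hochberg adjustment over 11546 genes at 0.05. Over all genes tested, 10.2% were called higher and 8.19% lower in modified 5′ (18.4% called), and 12.5% higher and 10.8% lower in standard 5′ (23.3% called). The median log2 fold change over the 32 genes was 0.77 in modified 5′ over 3′ and 0.54 in standard 5′ over 3′, with medians of -0.02 and -0.01 over all genes. The 2 comparisons share the 3′ libraries. Leaving out 1 library moved the counts: for modified 5′ over 3′, 3 members, Rps25 among them, were called without modified 5′ replicate 1 (3.35% of all genes) and 11 without modified 5′ replicate 2 (4.04%). For standard 5′ over 3′, 6 were called without standard 5′ replicate 1 (17.1% of all genes) and 2, Rps25 among them, without standard 5′ replicate 2 (1.82%). With the replicate number as a block, 18 were called for standard 5′ over 3′, 16 higher and 2 lower (Rps15 and Rps25), while the share of all genes called was 35.7%. Scaled by library totals instead of TMM, the median of all genes moved to -0.37 in modified 5′ over 3′ and -0.39 in standard 5′ over 3′, with 10 and 3 members then called higher, against 4.29% and 4.82% of all genes (24.0% and 27.7% called in all). In standard 5′ over 3′ that scaling turned 6 members below 0 (Rps12, Rps14, Rps15a, Rps21, Rps23 and Rps27) and called 3 lower, Rps15 and Rps25 among them; in modified 5′ over 3′ it turned 3, Rps6 and Rps23 among them. Compared within each replicate number, 28 members were above 0 and 3 below in both numbers in modified 5′ over 3′, against 37.9% above and 39.1% below over all genes tested. In standard 5′ over 3′ 18 members were above and 3 below, against 38.0% and 39.6% of all genes.

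Rps25 encodes a surface protein of the head that is known for a part in initiation at internal entry sites of viral messages, and its gene is dispensable for growth in yeast. It lies at chromosome 9, 44407139 to 44410427 on the plus strand of GRCm38, and overlaps Trappc4 and Ccdc84 on the opposite strand. Rps25 had 96.8 and 91.4 CPM in modified 5′, 43.0 and 48.6 CPM in standard 5′, and 956 and 646 CPM in 3′ libraries. It was the single member called lower in both comparisons. Its log2 fold changes were -3.09 ± 0.25 in modified 5′ over 3′ (adjusted p = 0.00053, edgeR) and -4.10 ± 0.27 in standard 5′ over 3′ (adjusted p = 0.00025, edgeR). Rps29, on few counts, had -0.40 and -0.51 in these comparisons and was not called. Trappc4 had 144 and 129 CPM in modified 5′, 135 and 162 CPM in standard 5′, and 81.5 and 115 CPM in 3′ libraries, and Ccdc84 at most 27.1 CPM. Without knowledge of strand in the counting, reads of overlapping genes cannot be told apart, and 62.5% of the 31-base words of the Rps25 transcript occur in other genes. The part of these overlaps in the difference was not tested. The low value held within gated cells: in T cells Rps25 had 142 and 136 CPM in modified 5′, 99.4 and 53.7 CPM in standard 5′, and 1687 and 1116 CPM in 3′ libraries.

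**Figure D2:**
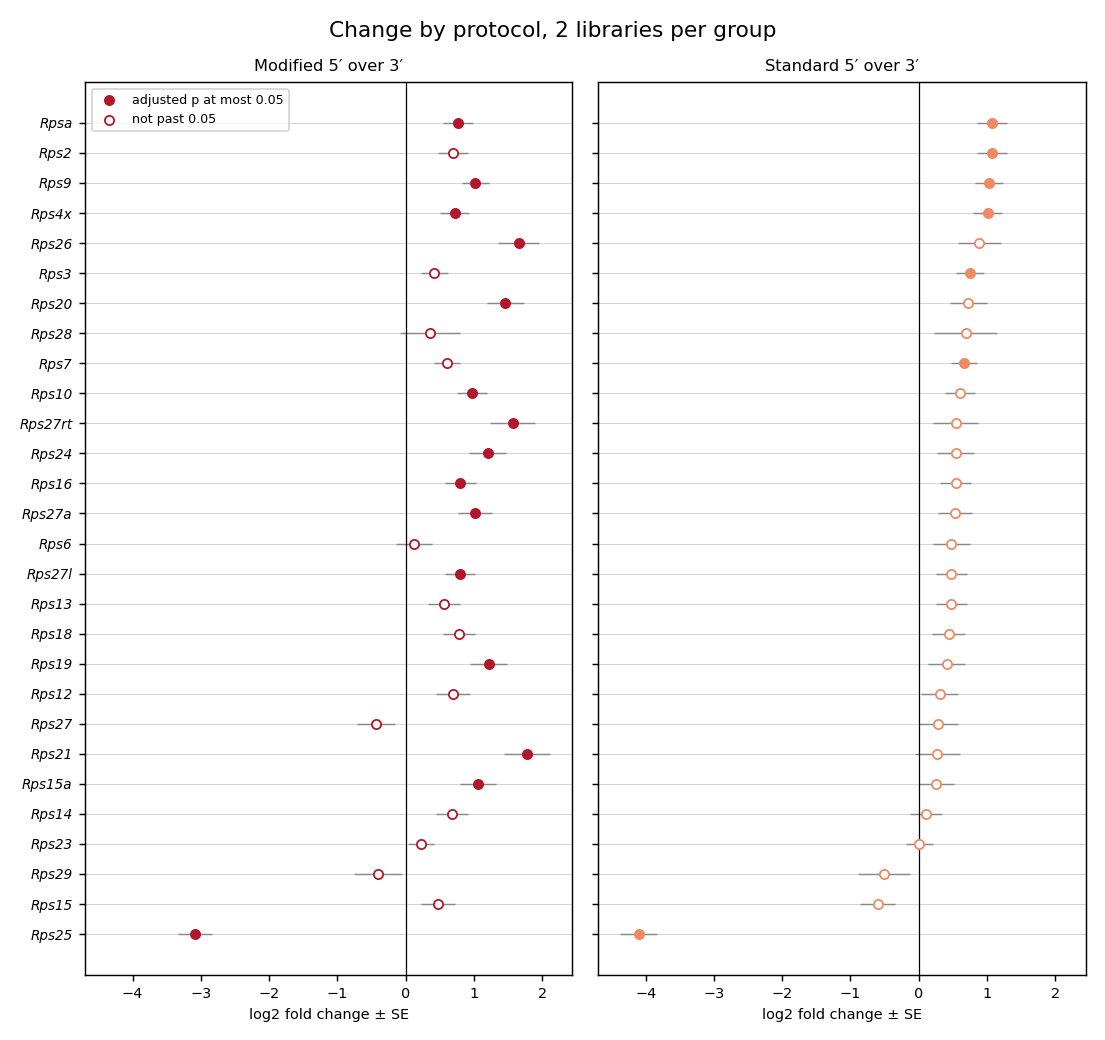
Log2 fold changes with standard errors for 28 members in modified 5′ over 3′ (left) and standard 5′ over 3′ (right), ordered by the standard 5′ value, with filled points at an adjusted p of at most 0.05. Rps25 lies at -3.09 on the left and -4.10 on the right, far below the other rows; the panels share the 3′ libraries.

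Rpsa, Rps2 and Rps4x, the members with the longest coding sequences, rose in standard 5′ over 3′. Rpsa, also known as the laminin receptor precursor and placed at the exit side, had 8723 and 9237 CPM in modified 5′, 11423 and 10987 CPM in standard 5′, and 4502 and 6135 CPM in 3′ libraries. Its log2 fold change was 1.08 ± 0.22 in standard 5′ over 3′ (adjusted p = 0.0101, edgeR). Rps2, at the messenger entry, had 5605 and 6426 CPM in modified 5′, 7869 and 7821 CPM in standard 5′, and 3116 and 4281 CPM in 3′ libraries. It rose by 1.08 ± 0.22 in standard 5′ over 3′ (adjusted p = 0.0106, edgeR) and had 0.70 ± 0.22 in modified 5′ over 3′ (adjusted p = 0.0548). Rps4x, the X-linked member, had 7867 and 7872 CPM in modified 5′, 10001 and 9153 CPM in standard 5′, and 4244 and 5280 CPM in 3′ libraries. It rose by 1.01 ± 0.21 in standard 5′ over 3′ and by 0.72 ± 0.21 in modified 5′ over 3′ (adjusted p = 0.0106 and 0.0387, edgeR). For these 3 genes modified 5′ libraries lay below standard 5′ and above 3′ libraries, with no overlap between the groups.

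Rps9, whose protein sits at the messenger entry, had 6753 and 7564 CPM in modified 5′, 6965 and 7389 CPM in standard 5′, and 3481 and 3557 CPM in 3′ libraries. It rose by 1.02 ± 0.20 and 1.03 ± 0.20 over 3′ (adjusted p = 0.00984 and 0.00809, edgeR). Also called in standard 5′ over 3′ were Rps3 (0.75) and Rps7 (0.66).

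A second group passed with a change of at least 1 on the log2 scale in modified 5′ over 3′ and not in standard 5′ over 3′. Of this group, Rps26 (0.89) and Rps20 (0.73) came close in standard 5′ over 3′ (adjusted p = 0.0616 and 0.0715, edgeR). Both were called there by DESeq2, without the low-count filter, in gated B cells and with the replicate block. Rps24 and Rps27a were called there with that block. The difference between the 5′ protocols, tested below, did not pass for any gene of the group in the fit of the 3 protocols alone. It passed for Rps21 with the replicate block, without the low-count filter, and in gated B and T cells, and for Rps27rt without the low-count filter. Rps21, which encodes a small protein of the subunit, had 5096 and 2887 CPM in modified 5′, 1057 and 1726 CPM in standard 5′, and 1361 and 956 CPM in 3′ libraries. Its log2 fold change was 1.78 ± 0.34 in modified 5′ over 3′ (adjusted p = 0.00972, edgeR), against 0.27 ± 0.33 in standard 5′ over 3′ (adjusted p = 0.576). Modified 5′ replicate 1 was the highest library, and standard 5′ and 3′ libraries overlapped. Rps26, which binds the messenger upstream of the start codon, had 431 and 217 CPM in modified 5′, 197 and 184 CPM in standard 5′, and 109 and 95.1 CPM in 3′ libraries. It rose by 1.66 ± 0.30 in modified 5′ over 3′ (adjusted p = 0.00864, edgeR).

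Rps24 had 13205 and 10022 CPM in modified 5′, 6569 and 8101 CPM in standard 5′, and 6171 and 3913 CPM in 3′ libraries. It rose by 1.20 ± 0.27 in modified 5′ over 3′ (adjusted p = 0.0172, edgeR). Rps20 had 10803 and 8538 CPM in modified 5′, 5386 and 6295 CPM in standard 5′, and 4346 and 2675 CPM in 3′ libraries, and rose by 1.46 ± 0.27 in modified 5′ over 3′ (adjusted p = 0.00884, edgeR). In both genes the modified 5′ libraries were the highest 2 of the 6. Rps19 had 6500 and 5017 CPM in modified 5′, 2971 and 3605 CPM in standard 5′, and 3071 and 1881 CPM in 3′ libraries, and rose by 1.22 ± 0.27 in modified 5′ over 3′ (adjusted p = 0.0172, edgeR). Standard 5′ and 3′ libraries overlapped for Rps19.

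Rps15a had 1061 and 674 CPM in modified 5′, 430 and 560 CPM in standard 5′, and 457 and 372 CPM in 3′ libraries, with a log2 fold change of 1.06 ± 0.26 in modified 5′ over 3′. Rps27a, which encodes ubiquitin fused to the ribosomal protein, had 412 and 318 CPM in modified 5′, 249 and 273 CPM in standard 5′, and 216 and 146 CPM in 3′ libraries, with 1.01 ± 0.25. Both passed in modified 5′ over 3′ (edgeR adjusted p = 0.0229 and 0.0226), and in each the modified 5′ libraries lay above all others. Rps10 (0.97), Rps16 (0.80), Rps27l (0.80) and Rpsa (0.76) passed with smaller changes.

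Called in neither comparison were 11 members, among them Rps6, Rps12, Rps13, Rps14, Rps15, Rps18, Rps23, Rps27, Rps28 and Rps29. Rps14, which lines the platform, had 3391 and 3061 CPM in modified 5′, 2034 and 2290 CPM in standard 5′, and 2378 and 1639 CPM in 3′ libraries. Rps18, which contacts the large subunit, had 4096 and 4145 CPM in modified 5′, 2864 and 3654 CPM in standard 5′, and 2863 and 1938 CPM in 3′ libraries. Modified 5′ libraries were the highest for both genes, with log2 fold changes over 3′ of 0.68 (adjusted p = 0.0675, edgeR) and 0.78 (adjusted p = 0.0514, edgeR). Rps13 had 362 and 409 CPM in modified 5′, 292 and 431 CPM in standard 5′, and 281 and 242 CPM in 3′ libraries. Rps23 differed little, at 70.1 and 79.2 CPM in modified 5′, 64.5 and 64.9 CPM in standard 5′, and 67.1 and 62.0 CPM in 3′ libraries. Rps12 had 55.3 and 74.6 CPM in modified 5′, 33.8 and 58.2 CPM in standard 5′, and 41.8 and 39.1 CPM in 3′ libraries.

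The 3 paralogues Rps27, Rps27l and Rps27rt each have 255 coding bases and showed different values. Rps27 (chromosome 3, 90212522 to 90213651, minus strand, 4 exons) had 28.6 and 19.3 CPM in modified 5′, 30.7 and 42.9 CPM in standard 5′, and 33.3 and 30.3 CPM in 3′ libraries. Rps27rt (chromosome 9, 114982366 to 114982739, minus strand, 1 exon) had 1934 and 1148 CPM in modified 5′, 519 and 971 CPM in standard 5′, and 564 and 470 CPM in 3′ libraries. Rps27 had fewer counts than its single-exon copy in all 6 libraries, and the ratio of Rps27rt to Rps27 was 67.6 and 59.5 in modified 5′, 16.9 and 22.6 in standard 5′, and 16.9 and 15.5 in 3′ libraries. Of the 31-base words of the Rps27 transcript, 98.7% occur in Rps27rt, so how the authors' counting split reads between them sets both values, which are uncertain. With the counts of the copy added to Rps27, its log2 fold change was 1.51 in modified 5′ over 3′, against -0.44 as counted.

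Rps27l (chromosome 9, 66946086 to 66949516, plus strand), a paralogue induced by p53, shares none of its 31-base words with either of them. It had 256 and 187 CPM in modified 5′, 178 and 176 CPM in standard 5′, and 139 and 116 CPM in 3′ libraries. Its log2 fold change was 0.80 ± 0.22 in modified 5′ over 3′ (adjusted p = 0.0368, edgeR) and 0.48 ± 0.23 in standard 5′ over 3′ (adjusted p = 0.153, and called with the replicate block). Rps27rt rose by 1.57 ± 0.33 in modified 5′ over 3′ (adjusted p = 0.0136, edgeR). Rps4x and Rps18 also have look-alike genes in the tables, 78.4% and 90.8% of their 31-base words being found in other genes.

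Between the 5′ protocols none of the 32 genes passed edgeR's test (0% of all genes tested were called), and DESeq2 called none, whereas 12 had an unadjusted p under 0.05, 11 of them higher and 1 (Rps27) lower in modified 5′. With the replicate block Rps21 (1.45 ± 0.24, adjusted p = 0.00175, edgeR) and Rps15 (1.06 ± 0.21, adjusted p = 0.0151, edgeR) were called higher in modified 5′ (0.182% of all genes called). In gated B and T cells Rps21 alone of the members was called, with 0.0440% and 0.0408% of all genes. Rps15, near the decoding site, had 1531 and 1441 CPM in modified 5′, 608 and 790 CPM in standard 5′, and 1310 and 823 CPM in 3′ libraries. Its standard 5′ libraries were the lowest 2 of the 6. Both modified 5′ libraries lay above both standard 5′ libraries for 19 members and below them for 7 (among them Rps2, Rps3, Rps4x, Rps7, Rps27 and Rpsa), with overlap in the other 6. Over all genes tested, 18.7% lay above and 17.4% below in this way. Compared within each replicate number, 20 members were above 0 and 8 below in both, against 27.4% and 27.5% of all genes.

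The differences between the 5′ protocols sorted by coding length, a pattern chosen after the values were seen and given as a description. Of 23 members with a coding length up to 500 nt, 21 had a positive log2 fold change in modified over standard 5′, with a median of 0.48. Of 9 longer members, 1 was positive and 7 were negative, with a median of -0.28. Across the 26 genes with a mean of at least 100 CPM, coding length and log2 fold change had Pearson's r of -0.84 and Spearman's rho of -0.84, and across all 32 genes -0.50 and -0.49. The genes share the same 4 libraries. Among genes with a mean of at least 100 CPM, large-subunit genes had medians of 0.50 (18 genes up to 500 nt) and -0.13 (17 longer genes), and the other protein-coding genes 0.03 (335 genes) and -0.08 (1167 genes). Over the members of at least 100 CPM the medians were 0.65 (18 genes) and -0.23 (8 genes). In standard 5′ over 3′, which shares the standard 5′ libraries with opposite sign, the medians were 0.44 for shorter and 1.03 for longer members, and 1 and 8 of them were called higher. In modified 5′ over 3′ the medians lay close together, at 0.80 and 0.72, with Spearman's rho of 0.02 across all 32 genes. At a mean of at least 100 CPM, the other protein-coding genes had medians of 0.70 (shorter) and 0.41 (longer) in standard 5′ over 3′, against 0.48 and 1.04 for the members.

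**Figure D3:**
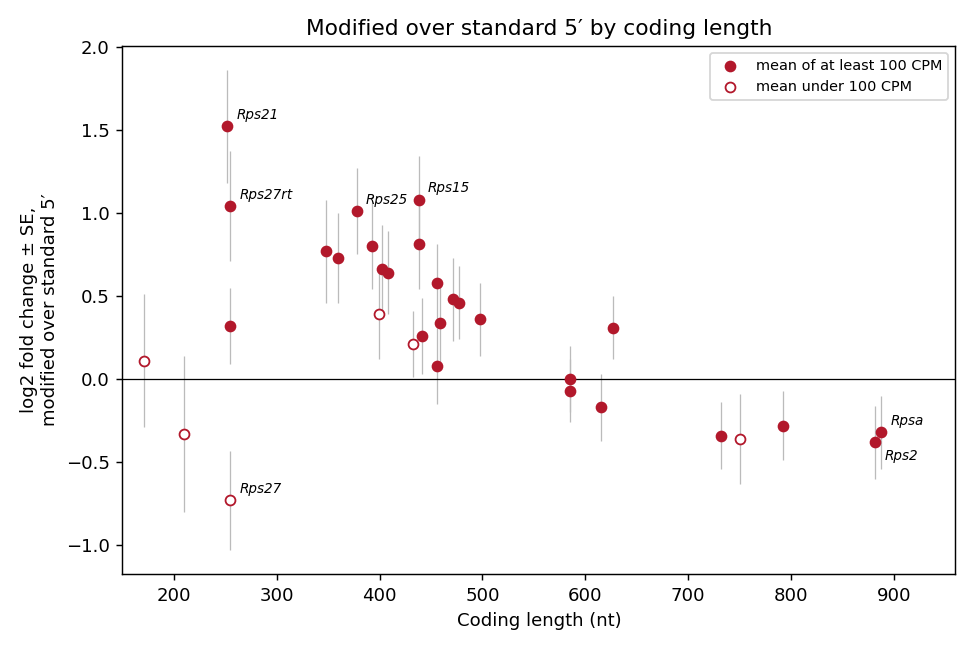
Log2 fold change of modified over standard 5′ with its standard error against coding length in nucleotides, 1 point per gene, filled for a mean of at least 100 CPM. Points up to 500 nt lie mostly above 0 (21 of 23) and longer ones mostly below (7 of 9).

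Replicate 2 minus replicate 1, with the protocol in the fit, called none of the 32 genes (edgeR, 3.58% of all genes called; 2 had an unadjusted p under 0.05, 1 in each direction; DESeq2 called none). With either standard 5′ library left out, only modified 5′ and 3′ libraries bear on this difference. The median log2 fold change over the members was then -0.28, against -0.10 with all libraries.

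Genes outside the rule were described from lists kept with the members. Over all genes tested, 12.5% were called higher and 10.8% lower in standard 5′ over 3′. In modified 5′ over 3′ these shares were 10.2% and 8.19%. In standard 5′ over 3′, 16 of 47 tested large-subunit ribosomal protein genes rose and 1 fell, with a median of 0.57, and Rpl29 (1.81), Rpl36a (1.77) and Rpl10a (1.33) changed most. In modified 5′ over 3′, 22 rose and none fell, with a median of 0.71. Of the small-subunit genes outside the rule, Fau, which encodes a ubiquitin-like fusion, had 122 and 117 CPM in modified 5′, 101 and 112 CPM in standard 5′, and 71.1 and 54.3 CPM in 3′ libraries. It rose by 0.79 in standard 5′ over 3′ (adjusted p = 0.0294, edgeR), and Rps3a1 (0.63) and Rack1 (0.28) did not pass.

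For the lists below, 23.3% of all genes were called in standard 5′ over 3′ and 18.4% in modified 5′ over 3′. Of 16 other messages with a TOP start, 6 rose and 1 fell in standard 5′ over 3′, with a median of 0.61. They were led by the elongation factors Eef1a1 (1.37) and Eef2 (1.00) and by Vim (1.05). In modified 5′ over 3′, 4 rose and none fell. Of 20 small-subunit assembly factors 5 rose and 2 fell in standard 5′ over 3′, with Dhx37, a helicase of early assembly, at -1.47, Nop9 at 1.33 and Rrp7a at 1.07. In modified 5′ over 3′ 2 rose and 1 fell; Nop9 passed (1.38, adjusted p = 0.0174, edgeR), whereas Dhx37 (-1.06, adjusted p = 0.0512) and Rrp7a (0.62, adjusted p = 0.104) did not. Of 9 tested S6 kinases and TOP regulators 1 rose (Rps6ka1, 1.07) and 1 fell (Rps6ka5, -1.07) in standard 5′ over 3′. That share is close to the share of all genes. In modified 5′ over 3′ Rps6ka1 rose by 1.27, and Rps6ka5 did not pass (-0.87, adjusted p = 0.0809, edgeR). The single other symbol with Rps in its name, Rps19bp1, rose by 0.99 in standard 5′ over 3′ (adjusted p = 0.0122, edgeR) and did not pass in modified 5′ over 3′ (0.64, adjusted p = 0.0556, edgeR).

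Cell classes were gated by raw counts, a cell needing at least 2 counts of its own marker list. B and myeloid cells held no counts of the other lists. T cells held no B or myeloid counts and fewer NK than T counts. NK cells held no B or myeloid counts, none of Cd3d, Cd3e, Cd3g and Trac, and did not pass the T gate. Counts of other T markers were allowed in NK cells. The gate passed 14 to 95 NK cells, 296 to 1057 T cells, 13 to 105 myeloid cells and 352 to 2009 B cells per library. Libraries with under 20 cells of a class were left out of its tests, which were standard 5′ replicate 1 for NK and myeloid cells. Of genes that were not used to gate, Ighd had 965 to 1235 CPM in B cells and at most 38.1 CPM elsewhere, Il7r 533 to 1193 CPM in T cells, Nkg7 3725 to 7306 CPM in NK cells and at most 966 CPM elsewhere, and Ctss 1347 to 1656 CPM in myeloid cells, against 533 to 733 CPM in B cells. Cd74, known for B cells, had 7184 to 19087 CPM in myeloid cells and 14260 to 38891 CPM in B cells, which overlapped. Tyrobp, at 2382 to 4757 CPM in myeloid cells, was as high in NK cells, at 2820 to 6182 CPM.

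The share of counts taken by the 32 genes was highest in T cells, followed by B cells, and was lower in NK and myeloid cells, which overlapped. NK cells had 5.66% and 5.37% in modified 5′, 5.05% in standard 5′ replicate 2, and 4.08% and 3.50% in 3′ libraries. T cells had 13.6% and 12.3% in modified 5′, 11.2% and 11.3% in standard 5′, and 9.16% and 8.20% in 3′ libraries. NK cells lay below T cells in each of the 5 libraries with both, by a difference of -6.19 points ± 1.33 (SD).

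Myeloid cells had 3.82% and 5.72% in modified 5′, 5.64% in standard 5′ replicate 2, and 3.42% and 3.26% in 3′ libraries. B cells had 10.1% and 9.34% in modified 5′, 9.19% and 8.47% in standard 5′, and 6.58% and 5.71% in 3′ libraries. Myeloid cells lay below B cells in each of the 5 libraries, by a difference of -3.67 points ± 1.52. T cells averaged 11.0% ± 1.99 and B cells 8.23% ± 1.72 (SD, n = 6 libraries), with T above B in every library by 2.74 points ± 0.500. The lowest 5′ value in myeloid cells, modified 5′ replicate 1, came from 27 cells with 14.4% haemoglobin counts, and was 4.47% with these genes removed.

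**Figure D4:**
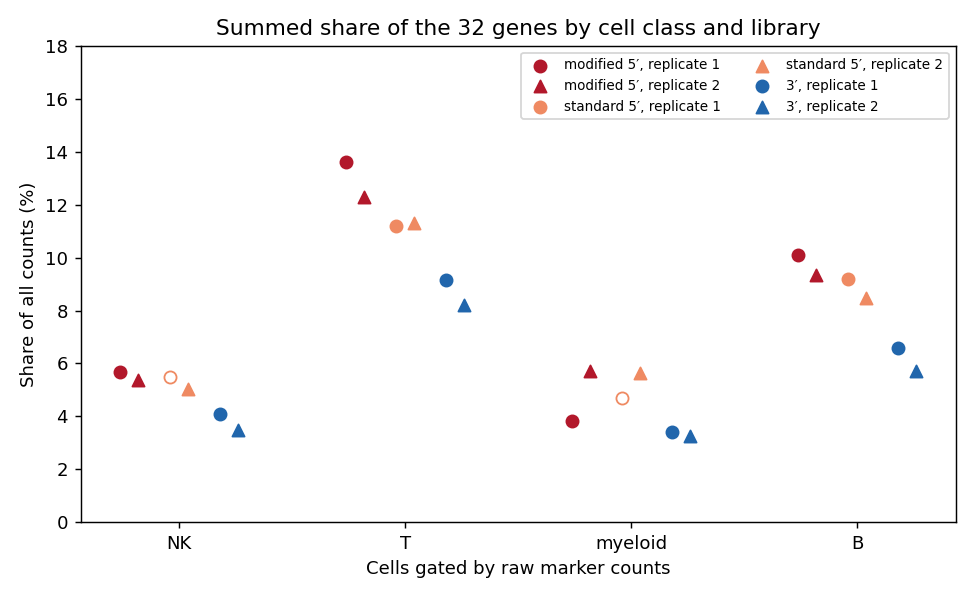
Share in percent of all counts taken by the 32 genes in gated NK, T, myeloid and B cells, 1 point per library, with hollow points for the 2 values from fewer than 20 cells. Within each library T cells lie above B cells, and in T, B and NK cells the 3′ libraries lie below the 5′ libraries.

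Summed counts were tested with the library as a term, for 28 of the members, since Rps12, Rps27, Rps28 and Rps29 were too low. In T over B cells 20 of 28 were called higher and none lower, against 27.9% of 3285 genes called higher (52.0% called in all), with a median of 0.28 against 0.02 over all genes. In 20 of the 28 the T value was above the B value in all 6 libraries, against 22.9% of all genes. Without the library term 2 of 28 (7.14%) were called, below the 26.1% of all genes called. Without modified 5′ replicate 2 13 of 28 (46.4%) were called, and without standard 5′ replicate 2 12 of 28 (42.9%), against 46.7% of all genes each time. Rps16, Rps6 and Rps7 changed most, with Rps14 level with Rps7 at 0.53 ± 0.09 (adjusted p = 2.2e-07, edgeR). These genes were higher in T cells in all 6 libraries. Rps16, which contacts the transfer RNA in the P site, had 799 and 766 CPM in T cells of modified 5′, 646 and 717 CPM in standard 5′, and 656 and 486 CPM in 3′ libraries. In B cells it had 525 and 543 CPM in modified 5′, 318 and 459 CPM in standard 5′, and 478 and 317 CPM in 3′ libraries. The log2 fold change of T over B was 0.58 ± 0.07 (adjusted p = 7.8e-11, edgeR).

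Rps7 rose by 0.53 ± 0.09 in T over B cells (adjusted p = 1.3e-07, edgeR), with 8349 to 10422 CPM in T cells and 5534 to 8507 CPM in B cells. Rps6, at 14 to 81 counts per library in T cells and 9 to 88 in B cells, rose by 0.54 ± 0.13 (adjusted p = 0.00028, edgeR). The 8 tested members that were not called included Rps9, Rps23, Rps25, Rps26, Rps27a, Rps27l and Rps27rt. Of these, Rps27l had -0.06 and was higher in T cells in 3 of 6 libraries, and Rps25 had 0.11.

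NK cells had 26 of 28 members lower than T cells and none higher, against 14.1% of all genes called lower and 9.28% called higher (23.4% called), with a median of -1.36 against -0.12 over all genes. All 26 were lower in NK cells in each of the 5 libraries, as were 20.2% of all genes. Rps19 had 1912 and 1483 CPM in NK cells of modified 5′, 1097 CPM in standard 5′ replicate 2, and 1160 and 969 CPM in 3′ libraries. In T cells Rps19 had 9656 and 7686 CPM in modified 5′, 5249 CPM in standard 5′ replicate 2, and 6035 and 3509 CPM in 3′ libraries. It fell by 2.25 ± 0.13 on the log2 scale (adjusted p = 1.9e-25, edgeR), the largest change of any member. Rps20 followed at -2.03 ± 0.12. Rps23 and Rps27l were the exceptions, at 0.02 and 0.31, neither called. In NK cells they rested on only 1 to 6 and 2 to 15 counts per tested library.

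Myeloid cells had 25 of 28 members lower than B cells, against 25.5% of all genes called lower (43.5% called), with a median of -1.05 against -0.25 over all genes. Rps15a had 174 and 293 CPM in myeloid cells of modified 5′, 189 CPM in standard 5′ replicate 2, and 265 and 119 CPM in 3′ libraries, against 1265 and 795 CPM, 630 CPM, and 670 and 539 CPM in B cells of the same libraries. It fell by 1.84 ± 0.20 on the log2 scale (adjusted p = 1e-12, edgeR), followed by Rps16 (-1.53 ± 0.23) and Rps20 (-1.50 ± 0.12). In the tested myeloid libraries Rps15a rested on only 3 to 15 counts and Rps16 on 1 to 14, against 33 to 222 for Rps20. Rps27l was higher in myeloid cells in 5 of 5 libraries, at 348 and 351 CPM in modified 5′, 260 CPM in standard 5′ replicate 2, and 265 and 193 CPM in 3′ libraries. These values rested on only 5 to 18 counts per library. In B cells Rps27l had 282 and 216 CPM, 206 CPM, and 169 and 162 CPM in the same libraries. Its log2 fold change of 0.46 ± 0.22 did not pass (adjusted p = 0.0817, edgeR); it was called with RLE factors (0.55, adjusted p = 0.0363) and by DESeq2 (0.55, adjusted p = 0.0402), and was -0.02 with no filter on low counts. Rps6 (-0.15) and Rps27a (-0.31) were not called.

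**Figure D5:**
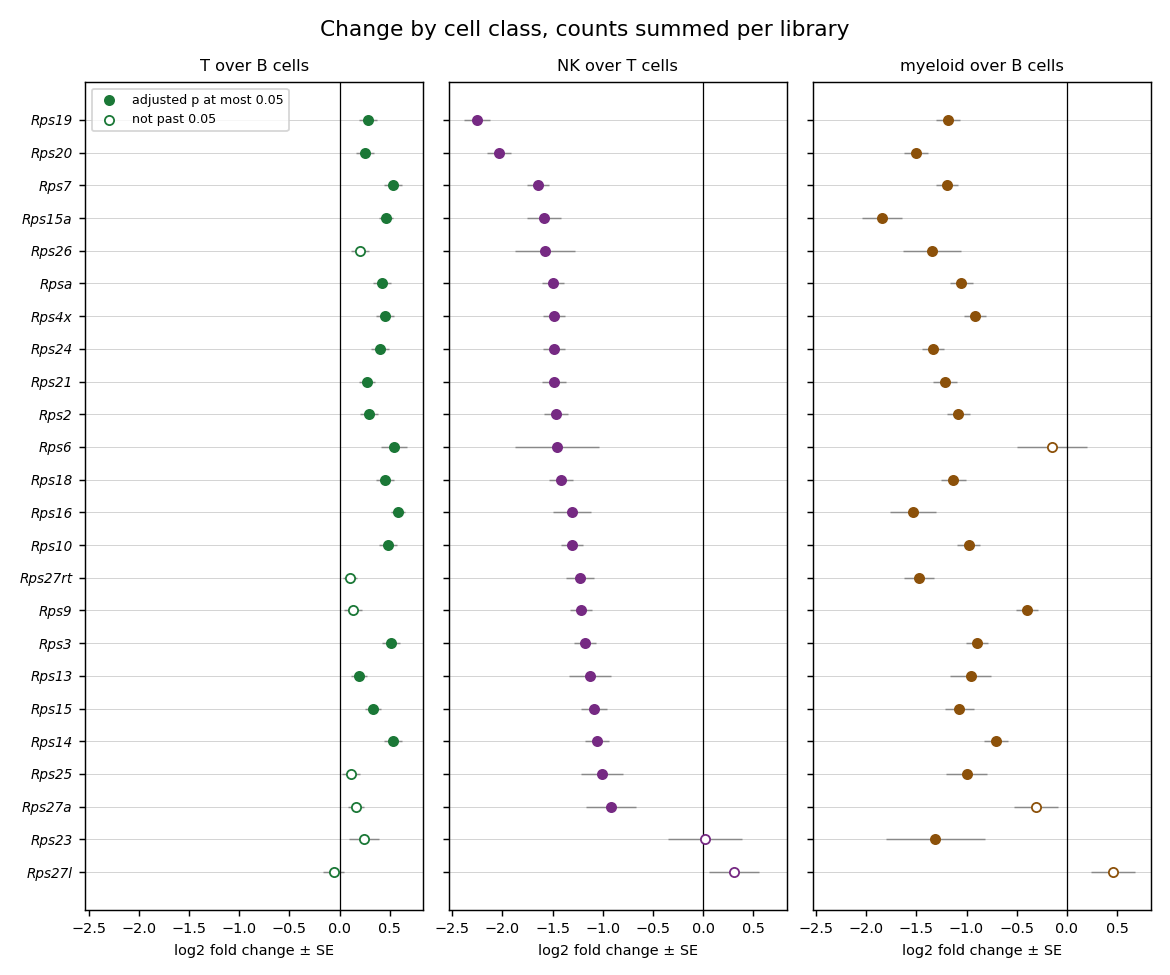
Log2 fold changes with standard errors for 24 of the 28 tested members in T over B, NK over T and myeloid over B cells, with filled points at an adjusted p of at most 0.05. Nearly all points lie above 0 in the left panel and below 0 in the other 2, while Rps27l lies at or above 0 in the right 2.

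Large-subunit genes were called mostly in these directions too: 28 of 39 were called higher and 1 lower in T over B cells, 32 of 39 lower in NK over T cells and 30 of 39 lower in myeloid over B cells. Of 16 other TOP messages, 11 were higher and 2 lower in T over B cells, 13 were lower and 1 higher in NK over T cells, and 10 were lower and 1 higher in myeloid over B cells. Over all genes, 27.9% were called higher and 24.0% lower in T over B cells. The shares called lower were 14.1% in NK over T cells and 25.5% in myeloid over B cells, and those called higher 9.28% and 17.9%.

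Whether the T over B difference itself changed with the protocol was tested in a fit with the class by protocol term. None of 30 tested members passed in standard 5′ against 3′, modified 5′ against 3′ or modified against standard 5′ (edgeR; 0.0838%, 0.0838% and 0% of all genes called; DESeq2 called none). At an unadjusted p under 0.05 there were 10, 1 and 1 members. All 10 in standard 5′ against 3′ were smaller in T over B, Rps9 the most by p (-0.36, adjusted p = 0.224). For B cells alone, 13 of 32 members were called in standard 5′ over 3′, 12 higher and 1 lower, against 30.2% of all genes. For T cells alone 10 of 30 were called, 8 higher and 2 lower, against 23.4% of all genes.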

How the data were processed

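The authors deposited, for each of 6 libraries, a table of raw whole-number counts of each gene in each barcode. Per the submitters' processing notes, the build is mm10 for all libraries and Seurat is named for the replicate 2 libraries. The aligner, annotation, use of strand, collapsing by molecular identifier and rule that called cells were not given in the sources used here.

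Counts were summed over kept cells (at least 200 genes, at most 20% mitochondrial counts), or over gated cells, and tested with edgeR 4.0.16 in R 4.3.3: quasi-likelihood test, TMM factors, filterByExpr and Benjamini-Hochberg adjustment at 0.05. The 3 protocols were fitted together without the replicate number, with 3 residual degrees of freedom. Fits with that number as a block were an alternative. DESeq2 1.42.0 was an alternative, along with RLE factors, library totals, no filter, all barcodes, haemoglobin genes removed, added look-alike counts, a gate of at least 3 counts and leaving out each library. No doublet caller was run. The B and myeloid gates exclude cells that hold counts of other lists, whereas T and NK cells may hold some of each other's markers. The ± values of fold changes are standard errors from the edgeR fit, and those of shares are SDs over libraries. Every pair of libraries differed by more than sampling noise.

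The replicate number is read as a batch, because the extraction text is shared by libraries of a number and libraries of 1 number differ from their group means alike (correlations of 0.356, 0.446 and 0.565 across 6818 genes). Members and gene lists were chosen with earlier results of these data known. Members described with all libraries are those that passed in a protocol comparison with an absolute log2 fold change of at least 1, the 3 largest changes per class comparison and the paralogues; of the other lists, up to 3 that passed with the largest change in standard 5′ over 3′ are named. Coordinates, coding lengths and 31-base words came from GENCODE M21 (GRCm38) and start windows from RefSeq. Tested on simulated counts with 200 changed genes, the fit of standard 5′ over 3′ recovered 16 of those changed by 1 and 82 of those changed by 2 on the log2 scale, over 11205 genes. The values of some members are not reported here, though counts and medians over the members include them.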

Additional observations from a re-analysis of the deposited data

Results flagged for a closer look

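The search for a library far from the rest covered 16 groups of values: shares, share differences and log2 differences of named members. It flagged 3, all of them log2 differences, where chance gives about 1 in 20 groups. For Rps16 in T over B cells, standard 5′ replicate 1 had 1.02, against 0.46 to 0.64 in the other 5 libraries. For Rps7 in T over B cells, the same library had 0.268, against 0.51 to 0.61 in the others. For Rps19 in NK over T cells, 3′ replicate 2 had -1.86, against -2.38 to -2.26 in the other 4 libraries. Standard 5′ replicate 1 had the fewest kept cells (861), and its part in these values was not tested.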

How the results depend on the processing

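NK over T and myeloid over B counts of called members, and the 3 class by protocol counts of 0, stayed within 1.5 times under every alternative run; of the other results, 543 values for single genes kept their direction and side of the threshold, 39 fell short of it and 2 newly passed it. Counts that moved were as follows; the cause was not tested. Standard 5′ over 3′ had 10 called members, 6 with library totals, 18 with the replicate block and 2 to 12 with a library left out. Modified 5′ over 3′ had 18, with 11 under library totals and 3 to 17 with a library left out. Modified over standard 5′ had 0, with 3 without the low-count filter, 2 with the replicate block, 1 in gated B cells and 1 in gated T cells (Rps21 in each). The replicate comparison had 0, and 0 to 1 with a library left out. T over B had 20, with 12 without the low-count filter, 2 without the library term and 12 to 18 with a library left out. The share of all genes called moved too. In T over B it was 52.0% in the main fit, 20.7% without the filter and 26.1% without the library term. With a library left out it was 45.6% to 50.4%. In standard 5′ over 3′ it was 23.3%, with 27.7% under library totals and 35.7% with the replicate block. In modified 5′ over 3′ it was 18.4%, and 24.0% under library totals. In modified over standard 5′ it was 0%, with 0.323% without the filter and 0.182% with the block. The replicate block changed the count of called members in no other comparison by over 1.5 times. In modified 5′ over 3′ it was 24 against 18, with 33.1% of all genes called against 18.4%. Over all barcodes the share difference was 2.89 points for modified 5′ over 3′ and 0.780 points for modified over standard 5′, against 3.73 and 1.37. Rps27, uncalled in the main fit, turned sign to -0.09 in standard 5′ over 3′ under library totals. With a library left out it ranged there from -0.03 (without standard 5′ replicate 2) to 0.45. With the look-alike's counts added it turned sign to 1.51 in modified 5′ over 3′, where it was called, and to 0.99 in modified over standard 5′. Most of the summed counts are then those of Rps27rt. With 2 libraries per protocol and few counts for Rps28 and Rps29, smaller differences are below what these data can show.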
